A study of Caenorhabditis elegans with 59 samples.

Results

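The transcripts of 10 genes known from work on the long life of Caenorhabditis elegans without a germline were followed in whole adult animals. They are daf-16, daf-12, tcer-1, nhr-49, nhr-80, kri-1, lipl-4, lbp-8, hlh-30 and skn-1, and they were chosen by name from the 15698 genes listed in any of 3 expression tables. The question was how their levels differed between sterile animals with and without a germline, how they moved over the first days of adulthood, and whether they moved when the heat shock transcription factor HSF-1 was removed from the soma. All 10 were listed in the table of the sterile strains. kri-1 was not listed in the tables of the fertile strains at 8 h and 24 h, and lipl-4 was not listed in the fertile table at 8 h, so they were not analysed there.

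RNA-seq was done on pooled whole worms, about 120 per condition for the sterile strains. The sterile libraries came from animals grown at 25 °C and carried, in every group, HSF-1 fused at its own locus to an auxin-dependent degron and GFP (hsf-1::aid::gfp I), together with the plant ubiquitin ligase TIR1 driven by the eft-3 promoter in the soma (ieSi57 II, a transgene that also holds Cbr-unc-119(+)). JTL667 was also glp-1(e2141) III, which has no germline at this temperature, and JTL670 was also fem-3(q20) IV and unc-119(ed3) III, and makes sperm but no oocytes. Both received ethanol (mock) or 1 mM auxin from day 1 of adulthood for 8, 24 or 48 h, with 3 libraries per group except glp-1 with auxin at 48 h, which had 2. The fertile strains, grown at 20 °C, were JTL611, with the degron and TIR1, and CA1200, with TIR1 alone. Both fertile strains also carried unc-119(ed3) III, and each was sampled after mock or auxin for 8 or 24 h, with 3 libraries per group. The strains therefore differ in more than the germline: fem-3(q20) and unc-119(ed3) are carried by one sterile strain only, and the fertile strains also differ in temperature and were normalized in their own tables.

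Loss of germline stem cells lengthens the life of C. elegans through signals from the somatic gonad to the intestine. DAF-16, a forkhead (FOXO) transcription factor, enters intestinal nuclei with the help of the ankyrin-repeat protein KRI-1. The transcription elongation factor TCER-1 acts on the expression of DAF-16 target genes, and DAF-12 is a nuclear receptor for the steroid hormones called dafachronic acids. The nuclear receptors NHR-49 and NHR-80 act on fat desaturation and oxidation, the lysosomal lipase LIPL-4 and the lipid chaperone LBP-8 carry a lipid signal from lysosome to nucleus, HLH-30 (TFEB) drives autophagy genes, and SKN-1 (Nrf) drives detoxification genes.

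Reads on listed genes ranged from 9131588 to 19964797 in the sterile libraries, while the fertile libraries had between 13100691 and 22230585 (8 h) or 13398410 and 23867943 (24 h). Levels are given in CPM, the reads of a gene scaled by the library's effective size, which is its total after the authors' normalization. A count of 3 reads was worth 0.133 CPM at least and 0.367 CPM at most over all libraries, and of the members lbp-8 came closest to this limit. Germline marker transcripts (8 genes, summed) lay at 21.7 to 53.1 CPM in glp-1 mock libraries, at 1828 to 2642 CPM in fem-3 mock libraries and at 1888 to 3077 CPM in the fertile libraries. Sperm markers (8 genes) reached 21.5 CPM at most in glp-1 mock and 2055 CPM at least in fem-3 mock libraries, with every defining marker listed. The library of glp-1 mock at 24 h numbered 1 had the fewest reads and stood apart from the others, and the results that rest on it are given with and without it. Groups follow the sample titles and the column names, but 18 of the 35 sterile libraries carry a treatment tag that names the other agent, all of them in fem-3 replicates 2 and 3 and glp-1 replicate 3. Grouped by title, auxin against mock called 65, 98 and 723 genes in glp-1 and 32, 43 and 341 in fem-3 at 8, 24 and 48 h, and grouped by tag it called 4, 8 and 23, and 2, 0 and 0. When libraries with such a tag were left out, every fem-3 group was left with 1 library, as was glp-1 with auxin at 48 h, and the other glp-1 groups with 2. The strain counts given below were then 4, 1 and 5 members, and no member was called in the time courses or with auxin at 24 h, but with arms of 1 library, assumed to vary like the other groups, these counts say little on whether the calls are stable. Levels in the sterile and fertile tables were normalized apart, so where they are set side by side no test was made.

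Per kilobase of exon, the order of the members differed between the strains. In glp-1 mock animals at 8 h, daf-16 had the highest level (51.2 ± 3.12 CPM per kb, SD, n = 3), above hlh-30 (35.1 ± 1.36). Behind it, nhr-80, nhr-49 and tcer-1 followed at 32.3, 31.8 and 31.5 CPM per kb, and neighbours from hlh-30 down to skn-1 (28.4) overlapped in their libraries. daf-12 (12.61) and lbp-8 (9.12) also overlapped, and kri-1 (4.07) and lipl-4 (2.32) stood apart from each other at the bottom. In fem-3 mock animals the same hour put tcer-1 first at 66.9 ± 5.46 CPM per kb, more than the 29.96 ± 2.48 CPM per kb of daf-16. There nhr-49 (21.6), skn-1 (20.4), hlh-30 (19.5) and nhr-80 (17.3) overlapped with their neighbours, as did lbp-8 (6.03) and daf-12 (5.53), and kri-1 (2.67) and lipl-4 (1.52) were again lowest. In fertile CA1200 mock animals at 8 h, tcer-1 (58.6 ± 9.80), skn-1 (43.0 ± 11.9) and nhr-49 (30.6 ± 9.45) led and overlapped with their neighbours, and hlh-30 (5.29), nhr-80 (3.48), lbp-8 (1.51) and daf-12 (1.26) were the lowest of 8 listed members.

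**Figure D1:**
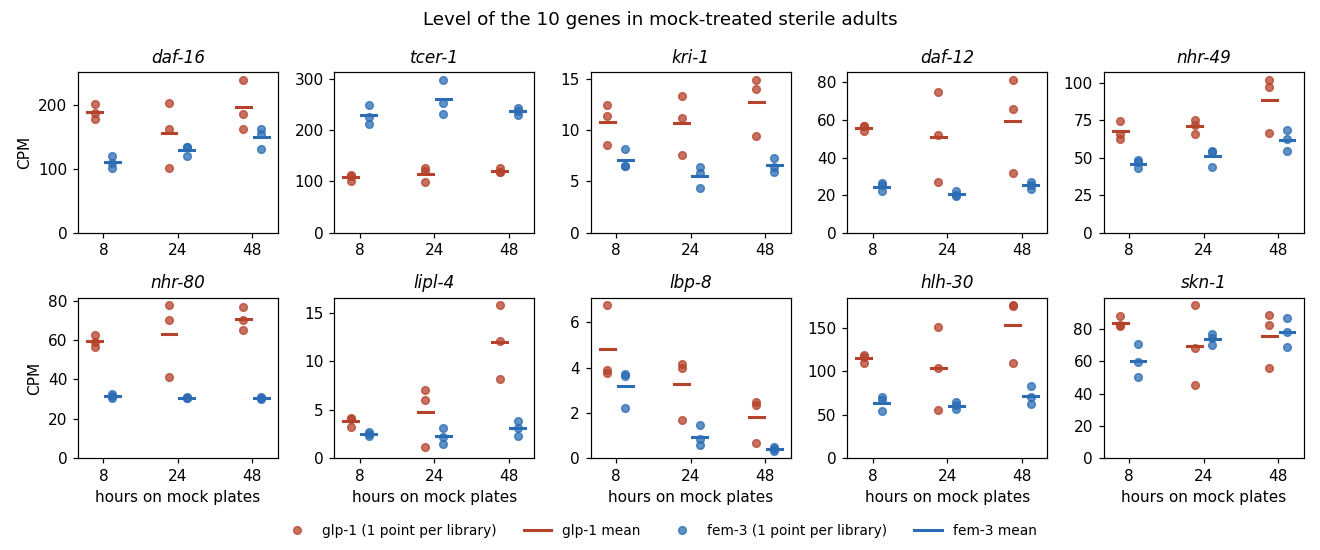
Level of each of the 10 genes in CPM (vertical axis, from 0) in the mock libraries of glp-1 and fem-3 at 8, 24 and 48 h of treatment; points are single libraries and bars are means of 3. On this scale tcer-1 lies lower in glp-1 than in fem-3 at each hour (98.4 to 126 against 213 to 299 CPM), and nhr-80 and daf-12 lie higher in every glp-1 library than in fem-3 at the same hour; centred on somatic markers, neither nhr-80 nor daf-12 is called.

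The first comparison asked which members differed between germline-less and sperm-only animals under mock treatment. At 8 h, 7 of 10 were higher and 1 was lower in glp-1, at 24 h 6 were higher and 1 lower, and at 48 h 7 were higher and 1 lower (limma, adjusted p under 0.05). The member that was lower was tcer-1 each time. Differences between these strains were common: 74% of all tested genes were called at 8 h (34.1% higher and 39.9% lower in glp-1), 79.5% at 24 h (33.8% and 45.7%) and 76.4% at 48 h (31.9% and 44.4%). Without the library that stood apart, the counts were 8, 9 and 9, with daf-16 and lipl-4 added at 24 h and daf-16 at 48 h. The log2 fold changes at 24 h were then 1.60 for daf-12, 1.26 for nhr-80, 1.14 for kri-1, 0.47 for nhr-49, 2.03 for lbp-8, 1.046 for hlh-30, 0.13 for skn-1 and -1.26 for tcer-1, of which only that of skn-1 was not called. The median log2 fold change of the members was 0.582, 0.713 and 0.996 at the 3 hours, beside 0.02, -0.36 and -0.25 over all tested genes.

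These directions depend on what the strains are scaled to. Somatic marker sums were higher in glp-1 than in fem-3 mock animals: 2.20-, 2.14- and 1.88-fold for 6 neuron genes, 1.89-, 1.99- and 2.91-fold for 7 intestine genes, 2.16-, 2.91- and 2.94-fold for 5 muscle genes and 1.27-, 1.29- and 1.68-fold for 4 somatic gonad genes at 8, 24 and 48 h. Of 4 epidermis markers only col-19 was listed, and it was 4.99-, 4.21- and 5.88-fold higher. Their part in the members' differences was not tested, and in whole animals fewer cells of a type and less RNA per cell cannot be told apart. When every library was centred on 23 somatic markers, which moved all differences by -1.06, -1.07 and -1.23 on the log2 scale, no member was called higher in glp-1 at any hour. Called lower were then tcer-1, nhr-49 and skn-1 at 8 h, these and daf-16 and hlh-30 at 24 h, and daf-16, tcer-1, nhr-49 and skn-1 at 48 h. Of 14269 tested genes, 726, 1440 and 1091 were called higher under this scaling and 7962, 8480 and 8849 lower. As deposited, 46.1%, 42.5% and 41.8% of all called genes were higher in glp-1 at the 3 hours, and under this scaling 8.4%, 14.5% and 11% were. When every library was centred on its own median instead, which moved the differences by 0.80, 0.99 and 0.95, that share became 64.2%, 60.2% and 61.6%, and 9 members were called higher at each hour. Of all tested genes, 7434, 6996 and 7115 were called higher on library medians and 4142, 4618 and 4433 lower. tcer-1 was then not called beyond 8 h: its log2 fold change was -0.19 (adjusted p = 0.117) at 24 h and -0.02 (adjusted p = 0.889) at 48 h. Each member is given below on the deposited scale, beside the value on somatic markers.

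**Figure D2:**
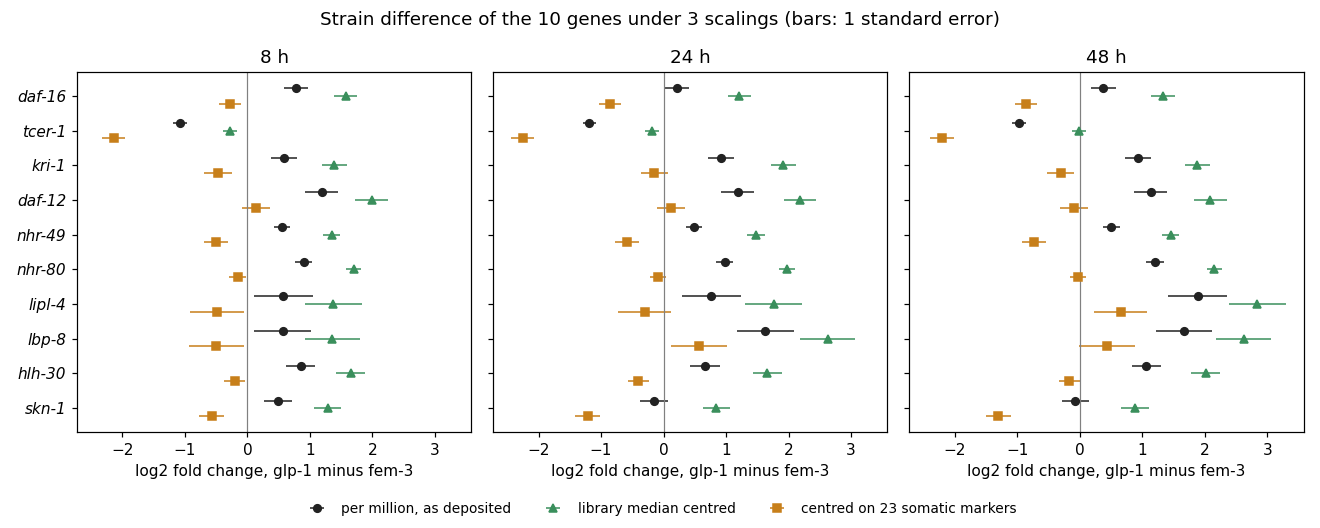
Log2 fold change of each member between glp-1 and fem-3 mock (horizontal axis) at 8, 24 and 48 h under 3 scalings: as deposited, centred on the library median, and centred on somatic markers; bars are 1 standard error either side. As deposited, 9 members at 8 h lie above 0 and tcer-1 lies at -1.08; on somatic markers tcer-1 lies at -2.14 and no member is called higher.

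daf-16 (WBGene00000912, I:10750498-10776703 in WBcel235, plus strand) had 187.1, 178.2 and 201.0 CPM in glp-1 and 109, 120.0 and 102 CPM in fem-3 mock libraries at 8 h. The groups did not overlap, and glp-1 was higher by 0.77 on the log2 scale (SE 0.20, limma adjusted p = 0.000925). At 24 h the glp-1 libraries spread from 102 to 204 CPM around the 120.0 to 134 CPM of fem-3, and the difference was 0.21 (adjusted p = 0.318), or 0.49 (adjusted p = 0.0164) without the library that stood apart. At 48 h glp-1 had 185, 239.7 and 163 CPM and fem-3 had 132, 162 and 155 CPM, again without overlap but with a difference of 0.38 that was not called (adjusted p = 0.0835), and was called without that library (adjusted p = 0.0387). Centred on somatic markers, the differences were -0.28, -0.85 and -0.86, and daf-16 was called lower in glp-1 at 24 h and 48 h.

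tcer-1 (WBGene00022855, II:7045874-7050071, minus strand) was the member called lower in glp-1 at each hour. Its glp-1 mock libraries held 110.3, 113 and 101 CPM at 8 h, 126, 120 and 98.4 CPM at 24 h and 126, 119 and 118 CPM at 48 h. The fem-3 mock libraries held 213, 226 and 249 CPM at 8 h, 232, 299 and 254 CPM at 24 h and 244, 238 and 229 CPM at 48 h. No library of one strain reached the range of the other. The log2 fold change was -1.08 (SE 0.11, adjusted p = 5.96e-10) at 8 h, -1.19 (SE 0.11, adjusted p = 6.71e-11) at 24 h and -0.97 (SE 0.11, adjusted p = 4.21e-09) at 48 h on the deposited scale, and -2.14, -2.25 and -2.20 on somatic markers, while on library medians the last 2 were not called. The fertile libraries, whose germline makes oocytes, held 166 to 240.2 CPM (median 217) at 8 h, and at 24 h between 179 and 252 CPM (median 231).

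kri-1 (WBGene00013955, I:8226494-8240637, minus strand) was less abundant than daf-16 and tcer-1 per kilobase. Its glp-1 mock libraries had 8.57, 12.4 and 11.3 CPM at 8 h, 7.57, 13.3 and 11.2 CPM at 24 h and 14.9, 14.0 and 9.44 CPM at 48 h. fem-3 mock libraries had 6.51, 8.16 and 6.54 CPM, 5.84, 6.37 and 4.35 CPM, and 7.30, 5.94 and 6.41 CPM at these hours, so that the strains did not overlap at any hour. glp-1 was higher by 0.59 (SE 0.21, adjusted p = 0.0131), 0.92 (SE 0.21, adjusted p = 0.000257) and 0.93 (SE 0.21, adjusted p = 0.000236) on the deposited log2 scale, and -0.47, -0.15 and -0.31, without a call, on somatic markers. Without glp-1 mock replicate 2 the difference at 8 h was 0.48 and not called. kri-1 overlaps T02E1.8 on the opposite strand, which had 0 to 1.52 CPM in the sterile libraries, and whether counting used strand is not given in the sources used here.

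daf-12 (WBGene00000908, X:10635908-10666875, plus strand), the steroid receptor, had 54.3, 56.7 and 57.0 CPM in glp-1 and 25.2, 26.2 and 22.2 CPM in fem-3 mock libraries at 8 h. The glp-1 libraries agreed closely there and spread later, to 26.8, 52.1 and 74.8 CPM at 24 h and 65.95, 81.6 and 31.5 CPM at 48 h, while the 9 fem-3 mock libraries lay between 19.5 and 26.8 CPM. The lowest glp-1 value still lay above the fem-3 libraries of its own hour. glp-1 was higher by 1.19 on the deposited log2 scale (SE 0.26, adjusted p = 0.000227), 1.19 (adjusted p = 0.000193) and 1.14 (adjusted p = 0.000331) at 8, 24 and 48 h. The value of 26.8 CPM at 24 h was that of the library that stood apart, and without it the difference was 1.60. The values on somatic markers were 0.13, 0.12 and -0.09, without a call. In the fertile libraries daf-12 reached 11.1 CPM at most (8 h, lowest 3.12) or 6.46 CPM at most (24 h, lowest 2.49), below every sterile mock library.

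nhr-80 (WBGene00003670, III:11985-14869, minus strand) hardly varied in fem-3, with 29.9 to 32.8 CPM over the 9 mock libraries. In glp-1 mock it had 56.5, 58.9 and 62.6 CPM at 8 h and 65.2, 70.05 and 76.6 CPM at 48 h. At 24 h replicates 1 and 3 had 41.1 and 77.6 CPM, with replicate 2 between them. Every glp-1 library lay above every fem-3 library. Its log2 fold change was 0.90 (SE 0.14, adjusted p = 1.41e-06), 0.98 (adjusted p = 3.14e-07) and 1.20 (adjusted p = 7.44e-09) on the deposited scale, and -0.16, -0.09 and -0.03, without a call, on somatic markers. The fertile libraries lay well below, between 4.42 and 7.64 CPM (8 h) or 3.53 and 6.49 CPM (24 h).

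nhr-49 (WBGene00003639, I:9869651-9874680, plus strand) had 66.04, 74.8 and 62.6 CPM in glp-1 and 43.0, 48.3 and 47.3 CPM in fem-3 mock libraries at 8 h. The strains were apart at 8 h and 24 h and overlapped at 48 h, when glp-1 had 102, 97.7 and 66.4 CPM and fem-3 had 68.6, 54.5 and 62.4 CPM. The differences were small but called at each hour: 0.55 (SE 0.13, adjusted p = 0.000615), 0.48 (adjusted p = 0.00182) and 0.50 (adjusted p = 0.00137) on the deposited log2 scale, and on somatic markers the values were -0.51, -0.58 and -0.73, called lower in glp-1 at each hour. Unlike daf-12 and nhr-80, its fertile levels overlapped the sterile ones, with 42.9 to 81.9 CPM (8 h) and 58.7 to 90.4 CPM (24 h).

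lipl-4 (WBGene00019376, V:6550171-6552186, plus strand) was scarce, with 4.20, 3.19 and 4.09 CPM in glp-1 and 2.31, 2.76 and 2.48 CPM in fem-3 mock libraries at 8 h. At 24 h the glp-1 libraries had 1.22, 6.05 and 7.07 CPM and fem-3 had 1.46, 3.15 and 2.23 CPM, the lowest value being that of the library that stood apart. At 48 h glp-1 had 12.1, 8.19 and 15.8 CPM and fem-3 had 2.29, 3.17 and 3.89 CPM, without overlap. The difference was 0.57 (SE 0.47, adjusted p = 0.272), 0.76 (adjusted p = 0.138) and 1.89 (SE 0.47, adjusted p = 0.000717), and that at 24 h was 1.53 (adjusted p = 0.00131) without that library. On somatic markers the values were -0.48, -0.30 and 0.65, without a call. Fold changes of such scarce genes are on the log2 scale with a prior count of 2 and understate the change in CPM.

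lbp-8 (WBGene00002260, V:13890773-13891364, plus strand), the lipid chaperone, had 3.78, 3.91 and 6.76 CPM in glp-1 and 3.71, 3.62 and 2.22 CPM in fem-3 mock libraries at 8 h. At 24 h the libraries had 1.71, 4.17 and 3.97 CPM in glp-1 and 0.834, 0.591 and 1.47 CPM in fem-3. At 48 h glp-1 had 2.48, 0.687 and 2.34 CPM, and fem-3 had 0.433, 0.346 and 0.493 CPM, which is 6 to 9 reads per library. No library of glp-1 fell within the fem-3 values of its hour. In log2 terms glp-1 was higher by 0.56 (SE 0.45, adjusted p = 0.264) at 8 h, 1.63 (SE 0.45, adjusted p = 0.00193) at 24 h and 1.67 (SE 0.45, adjusted p = 0.00163) at 48 h on the deposited scale, and -0.50, 0.56 and 0.44, without a call, on somatic markers.

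hlh-30 (WBGene00020930, IV:4014793-4034951, minus strand) had 109.6, 118 and 116 CPM in glp-1 and 70.2, 67.3 and 53.8 CPM in fem-3 mock libraries at 8 h. At 24 h the glp-1 libraries ran from 56.1 to 151 CPM and overlapped those of fem-3, and at 48 h glp-1 had 175, 176 and 109 CPM against 62.5, 83.1 and 70.2 CPM. The log2 fold change was 0.85 (SE 0.23, adjusted p = 0.00193), 0.66 (adjusted p = 0.0119) and 1.06 (adjusted p = 0.000183) on the deposited scale. Without glp-1 mock replicate 3 the difference at 24 h was 0.33 and not called, and without replicate 1, the library that stood apart and the lowest, it was 1.046 (adjusted p = 3.89e-05). On somatic markers the values were -0.20, -0.40 and -0.17, and hlh-30 was called lower at 24 h. The fertile libraries reached 27.1 CPM (8 h, lowest 11.2) and 27.3 CPM (24 h, lowest 10.2), below every sterile mock library.

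skn-1 (WBGene00004804, IV:5651039-5660384, minus strand) was called at 8 h only. It had 82.2, 81.7 and 87.9 CPM in glp-1 and 50.5, 70.9 and 59.7 CPM in fem-3 mock libraries at 8 h, a difference of 0.49 (SE 0.22, adjusted p = 0.0496) that lost its call when any 1 of 5 of these 6 libraries was left out. At 24 h glp-1 had 45.1, 68.3 and 94.7 CPM and fem-3 had 69.8, 76.7 and 74.3 CPM, and at 48 h the values were 82.2, 88.6 and 55.6 CPM and 68.7, 86.9 and 78.2 CPM. The strains overlapped at both hours, with log2 fold changes of -0.15 (adjusted p = 0.542) and -0.07 (adjusted p = 0.786). On somatic markers the values were -0.57, -1.22 and -1.30, called lower in glp-1 at each hour. Fertile libraries had 87.7 to 162 CPM (8 h) and 98.9 to 221 CPM (24 h), and their lower end overlapped the sterile libraries, which reached 96.1 CPM. skn-1, with 2960 exon bases, overlaps csn-5 and clec-178 on the opposite strand. The stretch shared with csn-5 is short, IV:5651039-5651079, and that with clec-178 is IV:5653949-5655003. csn-5 had 1.099 to 33.9 CPM in the sterile and 89.9 to 126.7 CPM in the fertile libraries, and clec-178 had 6.04 CPM at most. Whether reads of csn-5 enter the fertile values of skn-1 was not tested.

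Genes that act with the members, taken from lists written with earlier results of these data known, moved in both directions between the strains on the deposited scale. Their counts stand beside 34.1%, 33.8% and 31.9% of all tested genes called higher in glp-1 and 39.9%, 45.7% and 44.4% called lower at 8, 24 and 48 h. Those on somatic markers at 48 h stand beside 1091 genes called higher and 8849 called lower of 14269 tested. Of 8 tested reporter genes of DAF-16, 7, 7 and 6 were higher in glp-1 mock and none was lower at 8, 24 and 48 h. At 48 h, mtl-1, a metallothionein, had 62.4 ± 16.1 against 1.75 ± 0.451 CPM, sod-3, the mitochondrial manganese superoxide dismutase, had 16.7 ± 5.20 against 1.26 ± 0.365 CPM, and ctl-2, a catalase, had 254 ± 21.5 against 76.4 ± 8.97 CPM. On somatic markers 4 of the 8 were higher and 2 were lower at 48 h. Of 8 partners of DAF-16, 3, 2 and 2 were higher and 5 were lower at each hour. Those lower at 48 h included hcf-1, a nuclear repressor of DAF-16 (21.0 ± 3.002 against 109 ± 3.30 CPM), smk-1 (71.7 ± 16.4 against 235.3 ± 19.4 CPM) and the sirtuin sir-2.1 (19.8 ± 1.25 against 50.2 ± 0.801 CPM). On somatic markers none of these 8 was higher and 7 were lower at 48 h.

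In the insulin pathway, 4, 4 and 4 of 10 genes were higher and 4, 5 and 3 lower in glp-1. The kinase akt-2 was among the higher at 48 h, with 94.1 ± 13.5 against 19.7 ± 1.33 CPM in fem-3, and on somatic markers 2 of the 10 were higher and 7 lower at that hour. Of 7 tested genes of dafachronic acid signalling, 4, 5 and 4 were higher and 1, 2 and 1 were lower. Among the higher was din-1, the corepressor of DAF-12, at 123 ± 19.4 against 67.4 ± 9.07 CPM at 48 h. On somatic markers 1 of these 7 was higher and 4 were lower at 48 h, and din-1 lay at -0.37 on the log2 scale without a call. Of 11 partners and targets of NHR-49 and NHR-80, 6, 7 and 6 were higher and 1, 3 and 0 were lower. The fatty acid desaturases fat-6 (1076 ± 182 against 196 ± 7.94 CPM) and fat-5 (641 ± 36.6 against 176 ± 18.3 CPM) were among the higher at 48 h. On somatic markers 3 of the 11 were higher and 5 lower at that hour. At 8 h on somatic markers the desaturases did not all go one way. There fat-5 (0.86) and fat-6 (0.69) were called higher in glp-1 and fat-7 (-2.52) was called lower. As deposited, none of the 11 was called lower at 48 h.

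Among 14 other lipases and lipid-binding proteins, 6, 8 and 6 were higher and 3, 3 and 5 lower in glp-1. The lipases lipl-5 (761 ± 90.1 against 40.2 ± 6.42 CPM), lipl-2 and lipl-1 were higher at 48 h, with log2 fold changes of 4.24, 4.54 and 3.24, beside the 1.89 of lipl-4. lbp-9 was lower (38.8 ± 12.96 against 249.6 ± 5.23 CPM). On somatic markers 4 of the 14 were higher and 8 lower at 48 h. Of 13 autophagy genes and regulators of HLH-30, 11 were higher and 1 was lower at each hour, including atg-16.2 (57.0 ± 8.30 against 16.1 ± 0.887 CPM), the kinase unc-51 (95.6 ± 13.03 against 34.9 ± 3.62 CPM) and the receptor sqst-1 (341 ± 40.2 against 130 ± 14.3 CPM) at 48 h. On somatic markers none of these 13 was higher and 5 were lower at 48 h. Of 9 genes that control or report SKN-1, 7 were higher at each hour and 1, 1 and 0 were lower, with gst-4, a glutathione transferase, at 64.0 ± 10.8 against 7.25 ± 0.347 CPM and the kinase sek-1 at 89.8 ± 14.6 against 27.8 ± 1.34 CPM. On somatic markers 3 of these 9 were higher and 4 lower.

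The second comparison followed the members over adulthood under mock treatment. Markers of somatic tissues fell over the same hours. From 8 h to 48 h the summed intestine markers went from 3561 ± 299 to 2295 ± 286 CPM in glp-1 and from 1882 ± 150 to 787.9 ± 71.2 CPM in fem-3, the muscle markers from 4992 ± 2533 to 2201 ± 348 CPM and from 2313 ± 619 to 748 ± 144 CPM, and col-19 from 3976 ± 649 to 206 ± 30.9 CPM and from 797 ± 65.1 to 34.99 ± 8.70 CPM. The neuron and somatic gonad markers ended at or above their starting means in both strains, and the part of any of these in the members' changes was not tested. In glp-1, none of the 10 was called between 8 h and 24 h by limma or by limma-voom, and none had an unadjusted p under 0.05, where 13.8% of all genes were called (37.7% of them higher at 24 h, 52.7% after median centring). Of 14269 tested genes, 4048 had an unadjusted p under 0.05 in that comparison. Without the library that stood apart, nhr-80 rose by 0.31 (adjusted p = 0.0439), and without replicate 3 daf-16 was called. Between 8 h and 48 h, 3 members were called in glp-1, beside 24.2% of all genes. lipl-4 rose from 3.83 ± 0.556 to 12.01 ± 3.79 CPM (log2 fold change 1.58, SE 0.47, adjusted p = 0.0132), without overlap between the hours. lbp-8 fell from 4.82 ± 1.68 to 1.84 ± 0.997 CPM (log2 fold change -1.46, SE 0.45, adjusted p = 0.0177), also without overlap. nhr-49 rose from 67.8 ± 6.33 to 88.8 ± 19.6 CPM (log2 fold change 0.37, SE 0.13, adjusted p = 0.0454), with overlapping libraries. Each rests on few libraries. lipl-4 was not called without replicate 2 at 8 h (1.46) or replicate 3 at 48 h (1.36), lbp-8 without replicate 3 at 8 h (-1.20) or replicate 2 at 48 h (-0.91), and nhr-49 without replicates 1 or 3 at 8 h or 1 or 2 at 48 h (0.25 to 0.35).

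In fem-3, lbp-8 was the 1 member called between 8 h and 24 h, beside 7.73% of all genes (40.4% of them higher at 24 h, 18.1% after median centring). Its mock libraries had 3.71, 3.62 and 2.22 CPM at 8 h and 0.834, 0.591 and 1.47 CPM at 24 h (log2 fold change -1.65, SE 0.45, adjusted p = 0.0230), without overlap, and the call was lost without replicate 1 or 2 of either hour, while the fold change stayed between -1.96 and -1.39 whichever of these 6 libraries was left out. Between 8 h and 48 h it fell by 2.57 on the log2 scale (SE 0.45, adjusted p = 9.66e-05), and nhr-49 rose from 46.2 ± 2.83 to 61.8 ± 7.10 CPM (0.42, SE 0.13, adjusted p = 0.0286), 2 members beside 18.4% of all genes. nhr-49 was not called without replicate 1 or 3 of either hour (0.34 to 0.43). daf-16 had 110.4 ± 9.15 CPM at 8 h and 149 ± 15.8 CPM at 48 h, without overlap, and was not called (adjusted p = 0.138). Centring on library medians left 1 member called in fem-3 over these hours.

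The changes from 8 h to 48 h were compared between the strains by an interaction term. It was called for none of the 10 members by limma or limma-voom, with none at an unadjusted p under 0.05, and for 10.1% of all genes (46.7% of these calls positive, 65.9% after median centring). An unadjusted p under 0.05 was reached by 3104 of 14269 genes. The highest values of the 10 were those of lipl-4 (1.31, SE 0.67, adjusted p = 0.253, 95% interval -0.05 to 2.68) and lbp-8 (1.11, SE 0.64, adjusted p = 0.331, 95% interval -0.21 to 2.42). Over these hours 10.7% of all genes rose and 13.5% fell in glp-1, and 8.73% rose and 9.69% fell in fem-3. Of 8 reporters of DAF-16, 5 rose and 1 fell in glp-1, and 2 rose and 1 fell in fem-3; the interaction was called for 2 of them, ctl-1 (0.77) and aqp-1 (-1.92), in opposite directions. Of the 13 genes around HLH-30, 5 rose and 3 fell in glp-1, and 2 rose and 1 fell in fem-3, and the interaction was called for none (lowest adjusted p = 0.139). Of the 14 other lipases and lipid-binding proteins 3 rose and 4 fell in glp-1, and 5 rose and 4 fell in fem-3. Among these the lipases lipl-1 (2.39), lipl-5 (1.89) and lipl-2 (1.76) had changes more positive in glp-1, with adjusted p of 0.00579, 1.06e-08 and 0.000429, and the lipid-binding proteins lbp-1 (-0.91), lbp-3 (-0.90) and lbp-2 (-0.71) had changes more negative in glp-1, with adjusted p of 0.00675, 0.0219 and 0.0351. In fem-3 lipl-5 fell from 166 ± 18.7 to 40.2 ± 6.42 CPM over these hours. Of the 9 genes around SKN-1, 3 fell in each strain and none rose, and the interaction was called for gst-10 (0.98), sek-1 (0.58) and gcs-1 (-0.42). gst-4 was among those that fell, from 274 ± 12.9 to 64.0 ± 10.8 CPM in glp-1 and from 54.9 ± 8.57 to 7.25 ± 0.347 CPM in fem-3. Also in both strains atg-16.2 rose, from 21.8 ± 1.14 to 57.0 ± 8.30 CPM in glp-1 and from 7.75 ± 1.003 to 16.1 ± 0.887 CPM in fem-3.

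The third comparison set auxin against mock to ask whether removal of HSF-1 moved the members. No sterile strain without the degron was among the libraries. In glp-1 and fem-3 an effect of auxin itself and one of HSF-1 removal therefore cannot be told apart. Auxin acts on the HSF-1 protein, so 8 chaperone genes that depend on it were followed. The study named such targets by HSF-1 binding and by lower mRNA in these glp-1 animals with auxin at 8 h or 24 h. Their fall in glp-1 at these hours is therefore no independent check of depletion. With auxin, 8, 7 and 5 of them fell in glp-1 and 6, 4 and 5 in fem-3 at 8, 24 and 48 h, and 1, F44E5.4, rose in fem-3 at 48 h. hsp-90 went from 500 ± 43.7 to 113 ± 37.3 CPM in glp-1 at 8 h, and hsp-1 from 1845 ± 158 to 894 ± 36.6 CPM in fem-3 at 48 h. Of the members, none was called in fem-3 at any hour, beside 0.224%, 0.301% and 2.39% of all genes, and limma-voom called none. In glp-1 none was called at 8 h (0.456% of genes), lbp-8 was called at 24 h (0.687%; 55.1% of all calls were higher with auxin, 39.8% after median centring), and none was called at 48 h (5.07%). Over the 60 tests of members in the sterile strains, 5 had an unadjusted p under 0.05. Of 14269 tested genes, 1063, 2276 and 2379 had such a p in glp-1 and 575, 938 and 1568 in fem-3 at 8, 24 and 48 h. Leaving lbp-8 out, the log2 fold changes ran from -0.47 to 0.78 with a lowest adjusted p of 0.111.

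**Figure D3:**
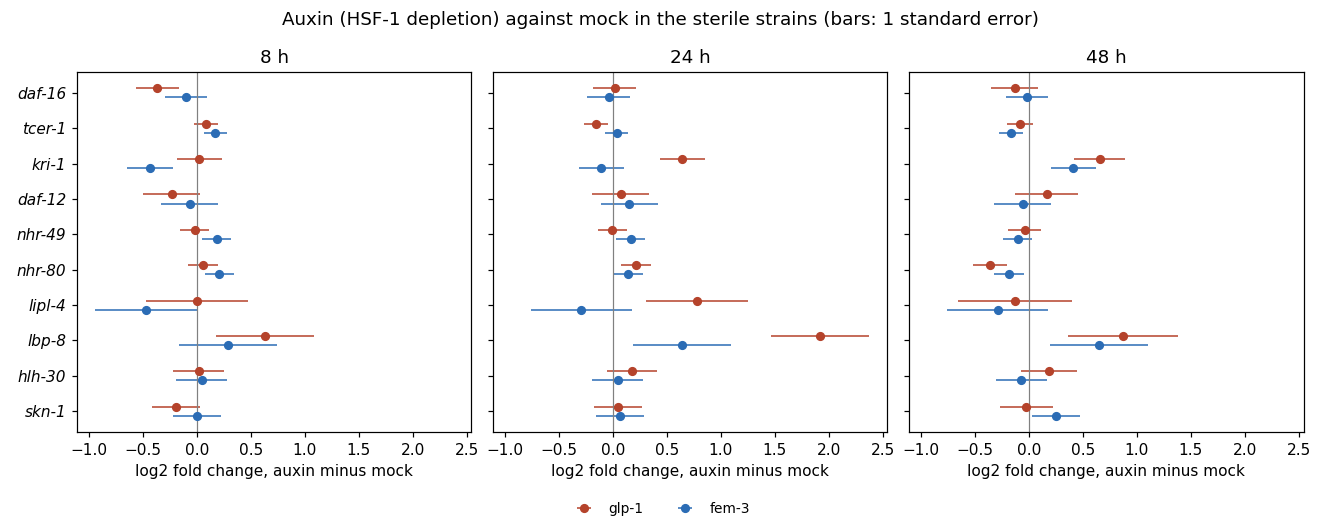
Log2 fold change of each member with auxin against mock (horizontal axis) in glp-1 and fem-3 at 8, 24 and 48 h; points are fitted values of 2 or 3 libraries per group, bars are standard errors, and the line marks 0. lbp-8 in glp-1 at 24 h, at 1.92, is the 1 value called; kri-1 in glp-1 lies at 0.64 at 24 h and 0.65 at 48 h and is not called.

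At 24 h lbp-8 had 1.71, 4.17 and 3.97 CPM in glp-1 mock and 12.56, 11.3 and 11.97 CPM in glp-1 auxin libraries. The groups were far apart on this scale, with a log2 fold change of 1.92 (SE 0.45, limma adjusted p = 0.0400). The lowest mock value was that of the library that stood apart, and without it the difference was 1.52 with an adjusted p of 0.259. The call was also lost without any 1 of the 3 auxin libraries, at 1.89 to 1.96, and when the fit held only the groups compared. At 8 h the libraries had 3.78, 3.91 and 6.76 CPM with mock and 7.70, 5.10 and 9.69 CPM with auxin, and overlapped (0.63, 95% interval -0.30 to 1.56). At 48 h they had 2.48, 0.687 and 2.34 CPM with mock and 4.19 and 2.20 CPM with auxin, again with overlap (0.87, 95% interval -0.17 to 1.91). In fem-3 the mean was also above mock with auxin at each hour, by 0.29, 0.64 and 0.65, and no value was called.

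kri-1 came next. In glp-1 it had 7.57, 13.3 and 11.2 CPM with mock and 17.8, 15.8 and 15.4 CPM with auxin at 24 h, and 14.9, 14.0 and 9.44 CPM and 20.1 and 19.5 CPM at 48 h. The groups did not overlap at either hour, but the differences of 0.64 (SE 0.21, adjusted p = 0.154) and 0.65 (SE 0.23, adjusted p = 0.111) were not called. limma-voom on the recovered reads called kri-1 at 48 h, and the deposited values called it at 24 h when mock replicate 2 was left out. Without mock replicate 1, the library that stood apart and the lowest, the difference at 24 h was 0.42 (adjusted p = 0.694). In fem-3 the log2 fold changes were -0.43, -0.11 and 0.41.

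nhr-80 had 65.2, 70.05 and 76.6 CPM with mock and 56.0 and 53.6 CPM with auxin in glp-1 at 48 h, without overlap. The log2 fold change of -0.36 (SE 0.15, 95% interval -0.68 to -0.04) was not called (adjusted p = 0.209), and was called (adjusted p = 0.0214) when the library that stood apart, of another hour, was left out of the fit. daf-16 had 187.1, 178.2 and 201.0 CPM with mock and 131, 146 and 163 CPM with auxin in glp-1 at 8 h, without overlap and without a call. lipl-4 kept a wide interval: at 48 h glp-1 auxin libraries had 11.5 and 9.76 CPM against 8.19 to 15.8 CPM with mock, a log2 fold change of -0.13 with a 95% interval from -1.21 to 0.95.

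Whether auxin acted differently in the strains was tested by an interaction at each hour. It was called for no member by limma or limma-voom, beside 0%, 0.035% and 0.413% of all genes at 8, 24 and 48 h, and the lowest adjusted p of a member was 0.526. That was kri-1 at 24 h (0.75, SE 0.30, 95% interval 0.14 to 1.35), the 1 member with an unadjusted p under 0.05. lbp-8 had 1.29 (SE 0.64, adjusted p = 0.578) at that hour. Of 14269 tested genes, 518, 1245 and 1260 had an unadjusted p under 0.05 at 8, 24 and 48 h.

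Some of the partner genes were called with auxin in the sterile strains, where auxin itself and HSF-1 removal cannot be told apart. Over all genes the shares called were 0.456%, 0.687% and 5.07% in glp-1 and 0.224%, 0.301% and 2.39% in fem-3 at 8, 24 and 48 h. Whether the lists depart from these shares was not tested. In glp-1 at 48 h the catalases ctl-1 (168 ± 16.7 to 103 ± 1.97 CPM) and ctl-2 (254 ± 21.5 to 154 ± 7.79 CPM) fell, 2 of 8 reporter genes of DAF-16, with adjusted p of 0.000238 and 0.000547. gcs-1, a glutathione synthesis enzyme and reporter of SKN-1, fell from 151 ± 14.3 to 115 ± 13.03 CPM (adjusted p = 0.0297), and the autophagy gene lgg-1 rose from 418 ± 38.1 to 571 ± 35.9 CPM (adjusted p = 0.0390). strm-1, a sterol methyltransferase that lowers dafachronic acid supply, fell from 5.601 ± 2.56 to 1.58 ± 0.373 CPM (adjusted p = 0.00296). In fem-3 at 48 h ctl-2 fell from 76.4 ± 8.97 to 53.5 ± 1.70 CPM (adjusted p = 0.00954), and at 24 h lipl-5 rose from 65.4 ± 1.52 to 96.7 ± 8.94 CPM (adjusted p = 0.0285). None of the 13 genes around HLH-30 or the 9 around SKN-1 was called at 8 h or 24 h in either strain.

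The fertile strains included CA1200, without the degron, as a control for auxin itself. JTL611 and CA1200 were compared under auxin, each strain with auxin against mock, and the strains with each other under mock, at 8 h and 24 h. No member was called. The shares of all genes called were 0% at both hours for JTL611 against CA1200 under auxin, for JTL611 auxin against mock and for JTL611 against CA1200 under mock, and 0.0186% and 0.00976% for CA1200 auxin against mock. limma-voom called no member either. With the replicate number as a block, which pairs the libraries at 24 h, the genes called were 8, 0, 10 and 4 for JTL611 against CA1200 under auxin, JTL611 with auxin, CA1200 with auxin and the strains under mock, again without a member. Each of these 4 comparisons held 17 tests of members over both hours. An unadjusted p under 0.05 was reached in 4 tests, 1 of 17 for auxin against mock in JTL611 and 3 of 17 in CA1200. They were lbp-8 in JTL611 at 8 h, lbp-8 in CA1200 at 8 h and at 24 h, and daf-16 in CA1200 at 8 h (63.0 ± 13.8 to 83.4 ± 4.85 CPM, limma adjusted p = 0.696). Over all tested genes, 200 of 10739 at 8 h and 472 of 10245 at 24 h had such a p in JTL611, and 422 and 144 in CA1200. The 6 tested chaperone genes were not called either, with a median of -0.49 and -0.43 in JTL611 and 0.03 in CA1200. The study, with its own edgeR test, reported genes changed by 24 h of HSF-1 depletion in JTL611. Since these fits called almost no gene, the lack of a member call does not show that auxin or depletion left the members unmoved.

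lbp-8 was above mock with auxin in the mean of all 6 sterile pairs of groups and all 4 fertile ones. CA1200, which has no degron on HSF-1, had 0.579, 0.379 and 1.43 CPM with mock and 1.68, 1.27 and 2.09 CPM with auxin at 8 h. Its libraries overlapped there, and the difference was 1.13 on the log2 scale (SE 0.40, unadjusted p = 0.0154, limma adjusted p = 0.696). At 24 h CA1200 had 0.957, 0.646 and 0.416 CPM with mock and 3.35, 1.94 and 0.898 CPM with auxin (1.36, SE 0.51, adjusted p = 1). JTL611 had 0.705, 0.442 and 0.690 CPM with mock and 1.495, 0.974 and 1.46 CPM with auxin at 8 h, which did not overlap (0.97, SE 0.40, adjusted p = 1), and 1.85, 0.588 and 0.775 CPM and 2.49, 1.16 and 1.42 CPM at 24 h (0.68, SE 0.51). Under auxin JTL611 lay 0.33 below CA1200 at 8 h (95% interval -1.20 to 0.54) and 0.17 below it at 24 h (95% interval -1.29 to 0.95). The values of CA1200 and of the sterile strains come from different tables and temperatures, and whether auxin without the degron moves lbp-8 at 25 °C was not tested.

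**Figure D4:**
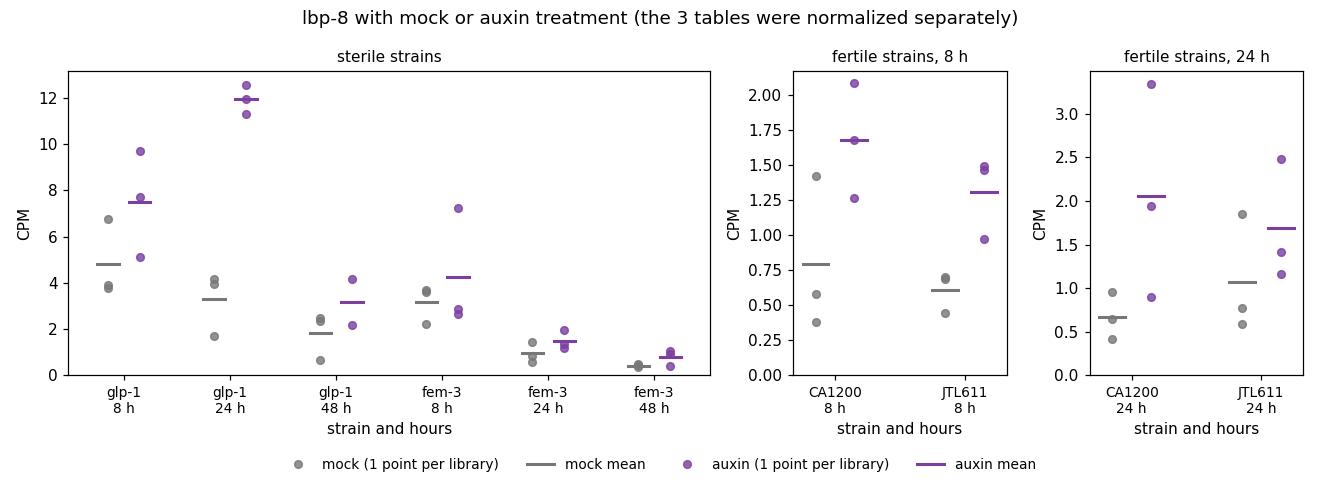
lbp-8 level in CPM (vertical axis) in single libraries with mock and auxin, in glp-1, fem-3, JTL611 and CA1200 at each hour; points are libraries and bars are group means. The 3 glp-1 auxin libraries at 24 h (11.3 to 12.56 CPM) lie above all others, and CA1200, with no degron, has auxin means above mock at 8 h and 24 h.

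For each member the gene most like it was found by Pearson correlation of log2 levels over the 12 group means of the sterile table, given as a description, since the groups share strains and libraries. The closest were F59C12.3 for daf-12 (r = 0.995), mpst-3 for nhr-80 (0.992), rga-8 for hlh-30 (0.985), T28F2.2 for kri-1 (0.978), rfip-1 for nhr-49 (0.974) and lim-6 for lipl-4 (0.969). For lbp-8 it was E02H4.7 (0.958), for daf-16 C54D10.10 (0.957) and for skn-1 grl-10 (0.896). For tcer-1 it was a pseudogene, WBGene00022853 (r = 0.996), which lies beside it at II:7043055-7044371 on the plus strand and does not overlap it. Between members, daf-12 and hlh-30 were the most alike (r = 0.96), and tcer-1 ran against daf-12 (-0.971) and nhr-80 (-0.929). The 12 groups are of glp-1 and fem-3 only, so a strain difference alone gives a strongly positive or negative r. Between these strains 74%, 79.5% and 76.4% of tested genes were called under mock, and r was taken on the deposited scale.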

How the data were processed

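Whole adult C. elegans were profiled by directional, poly(A)-selected RNA-seq. Per the study's methods and the submitters' processing notes, paired reads of 50 bp, or longer ones trimmed to that length, were aligned with STAR to WBcel235 (ce11) and counted with featureCounts, and genes under 1 CPM in more than 75% of samples were removed; versions are not given in the sources used here. The deposited values are log2 CPM, made by the authors with edgeR and a prior count of 2. One further column, the authors' own differential expression flag, was not used. CPM were obtained by undoing the prior count, and 100% of the values at low counts came out as whole reads (tolerance 0.1). Values at higher counts were not checked in this way. There were 15364, 10763 and 10307 genes in the sterile, 8 h and 24 h tables.

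Deposited log2 values were fitted with limma 3.58.1 (R 4.3.3) as group means with a trended empirical Bayes variance, all libraries of a table together, on genes with at least 1 CPM in 25% of libraries (14269, 10739 and 10245). Tests were two-sided, adjusted by Benjamini-Hochberg over all tested genes and called under 0.05. Since the deposited files hold log2 values, no count model was the main test; limma-voom on recovered reads was an alternative. Groups were taken from sample titles: 18 of 35 sterile libraries carry an agent tag that goes against the title, and column names follow the titles. Members were named in full; of each list, up to 4 called genes with the largest change per comparison were eligible to be named. The members and lists were chosen with earlier results of these data known. The labels do not say whether libraries are separate cultures, so p-values measure the spread between these libraries, and read limits cover counting error only. Same-numbered libraries were taken as paired where every pair's deviations correlated above 0.1, which was met for fem-3 auxin against mock at 24 h (0.124 to 0.231), JTL611 against CA1200 under auxin at 8 h (0.108 to 0.446) and every comparison at 24 h in the fertile strains (0.207 to 0.806). Scripts were tested on simulated data. Promoter sequences and motifs were not used here.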

Additional observations from a re-analysis of the deposited data

How the results depend on the processing

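Over 25 counts of called members, 16 stayed within 1.5 times the main count under every alternative run. All 16 were counts of 0 members, and they included every comparison of the fertile strains, where almost no gene was called. Each count above 0 moved further than this under at least 1 alternative. With the 41 of 59 libraries whose labels agree, which leaves 1 library in every fem-3 group and in glp-1 auxin at 48 h, the strain counts were 4, 1 and 5 and the glp-1 (8 to 48 h), fem-3 (8 to 24 h), fem-3 (8 to 48 h) and glp-1 auxin (24 h) counts were 0. With groups by agent tag, those of fem-3 were 0 and 1 and that of glp-1 auxin at 24 h was 0. In a fit of only the groups compared, glp-1 (8 to 48 h) gave 1, fem-3 (8 to 48 h) 4 and glp-1 auxin at 24 h 0. Median centring gave 1 for fem-3 (8 to 48 h), limma-voom gave 1 for glp-1 auxin at 48 h, and centring on somatic markers gave 3, 5 and 4 for the strains. Without glp-1 mock 24 h replicate 1 (added after seeing the data, as was the somatic centring), glp-1 (8 to 24 h) gave 1, and glp-1 auxin gave 0 at 24 h and 1 at 48 h. The causes were not tested, beside the smaller numbers of libraries. Leaving out 1 library gave 6 to 8, 6 to 9 and 8 to 9 for the strains, 0 to 1 for glp-1 (8 to 24 h), 1 to 2 for glp-1 (8 to 48 h), 0 to 1 and 1 to 2 for fem-3, and 0 to 2 for glp-1 auxin at 24 h. Log2 fold changes that turned sign, between strains and on somatic markers, were at 8 h daf-16 -0.28, nhr-49 -0.51, nhr-80 -0.16, kri-1 -0.47, lipl-4 -0.48, lbp-8 -0.50, hlh-30 -0.20 and skn-1 -0.57, at 24 h daf-16 -0.85, nhr-49 -0.58, nhr-80 -0.090, kri-1 -0.15, lipl-4 -0.30 and hlh-30 -0.40, and at 48 h daf-16 -0.86, daf-12 -0.094, nhr-49 -0.73, nhr-80 -0.029, kri-1 -0.31 and hlh-30 -0.17. skn-1 became 0.85 (24 h) and 0.88 (48 h) on library medians, 0.13 without the library that stood apart (24 h) and 0.31 where labels agree (48 h). lbp-8 with auxin in fem-3 became -0.60 (8 h) and -0.72 (48 h) by agent tag, and -0.46 and -0.11 where labels agree, which there compares 1 library with 1 (61 and 49 reads of mock and auxin at 8 h, 7 and 7 at 48 h). Leaving out 1 library gave ranges from -0.0052 to 0.49 for daf-16 (strains, 24 h), -0.41 to 0.13 and -0.20 to 0.14 for skn-1 (24 and 48 h), -0.16 to 0.54 for lbp-8 with auxin in fem-3 (8 h), -0.32 to 0.67 for its interaction (48 h) and -0.64 to 0.25 for JTL611 against CA1200 under auxin (24 h). The replicate block gave 8, 7 and 9 called members for the strains and 3 for glp-1 (8 to 48 h), and changed no member call where the numbers pair the libraries. Over all genes, a fit of only the groups compared called 6, 0 and 19 genes with auxin in glp-1 (65, 98 and 723 with all libraries) and 484 and 1930 in fem-3 at 24 and 48 h (43 and 341).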
